A study of Mus musculus with 12 samples.

Results

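Poly(A) RNA of the hippocampus was compared between 4 Treatment and 4 Control libraries, which are 8 of the 12 libraries of the study, chosen by their labels alone. All mice were male C57BL/6, 6 to 8 weeks old when bought. Control mice were not stressed and were given saline. Treatment mice went through chronic unpredictable mild stress (CUMS), a daily schedule of changing mild stressors, for 28 days. From day 15 they were also given poricoic acid A, a triterpenoid compound found in the medicinal fungus Poria cocos, which was gavaged at 20 mg/kg once a day for 14 days. The other 4 libraries, called Model, came from mice that were stressed in the same way and given saline. Every group was housed alike, and only mice that preferred sucrose at the outset were taken. The contrast of Treatment with Control therefore holds stress and compound together, and their effects cannot be told apart in it. The Model libraries shared the fit, and values of Model are given beside many of the genes named. The comparisons with Model use the same Control or Treatment libraries and are not independent of this one. In them 1.88% (Treatment minus Model) and 0.790% (Model minus Control) of the genes tested passed. The labels give 4 mice per group for sequencing but tie no library to a mouse, so the p-values reflect the spread between samples, which may be technical.

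The estimated counts of the Control libraries added up to between 17083260 and 27479083, and those of the Treatment libraries to between 19535385 and 23665426. Of 78298 genes listed, 18600 had enough counts to be tested, and the biological coefficient of variation, the spread between libraries of a group beyond counting error, was 10.7%. The labels place all libraries in batch 1, while the library names of Treatment replicates 2 and 3 (1631 and 1636) stand apart from the other names, which run from 1868 to 1898. Prox1, the defining transcription factor of dentate gyrus granule cells, lay between 98.2 and 175 counts scaled to library size (CPM) in the 12 libraries, so hippocampal tissue was present in each. Expression is given as CPM, scaled by library with the trimmed mean method (TMM), and each change as a log2 fold change ± SE in edgeR, with 4 libraries in each group. A gene passed where its p, adjusted by Benjamini and Hochberg's method over the 18600 genes, was under 0.05.

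The hippocampus takes part in memory and in the control of the stress response. Its neurons answer synaptic activity within minutes by transcribing immediate early genes, among them the Fos, Jun and Egr families of transcription factors, whose products act on later genes. Such genes, the corticosteroid receptors, neurotrophins, myelin genes and chaperones of the endoplasmic reticulum (ER) are commonly followed in rodents under chronic stress. Tissue taken with the hippocampus, such as neocortex, thalamus or the choroid plexus of the adjoining ventricle, adds its own transcripts to a bulk library.

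Treatment differed from Control in 19 genes, 0.102% of those tested, and all of them are protein coding. Of these 12 rose (0.0645% of genes tested) and 7 fell (0.0376%). The genes that rose included 4 immediate early genes, Fosb, Egr3, Jund and Nptx2, and the calcium-binding Efhd2, the cytokine receptor Cntfr and the corepressor Cbfa2t3. Among the falling ones were Rpl39 and Eif3m of the translation machinery, Aspa of oligodendrocytes, the cold-inducible Rbm3, and the transporters Slc31a1 and Slc6a15. Tgtp1 was the 1 gene (0.00538% of those tested) that fell by more than 2-fold, and 0 rose by as much. In each of the 19 genes the 4 Treatment libraries lay on one side of the 4 Control libraries, as did 1346 of all genes tested (7.24%).

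**Figure D1:**
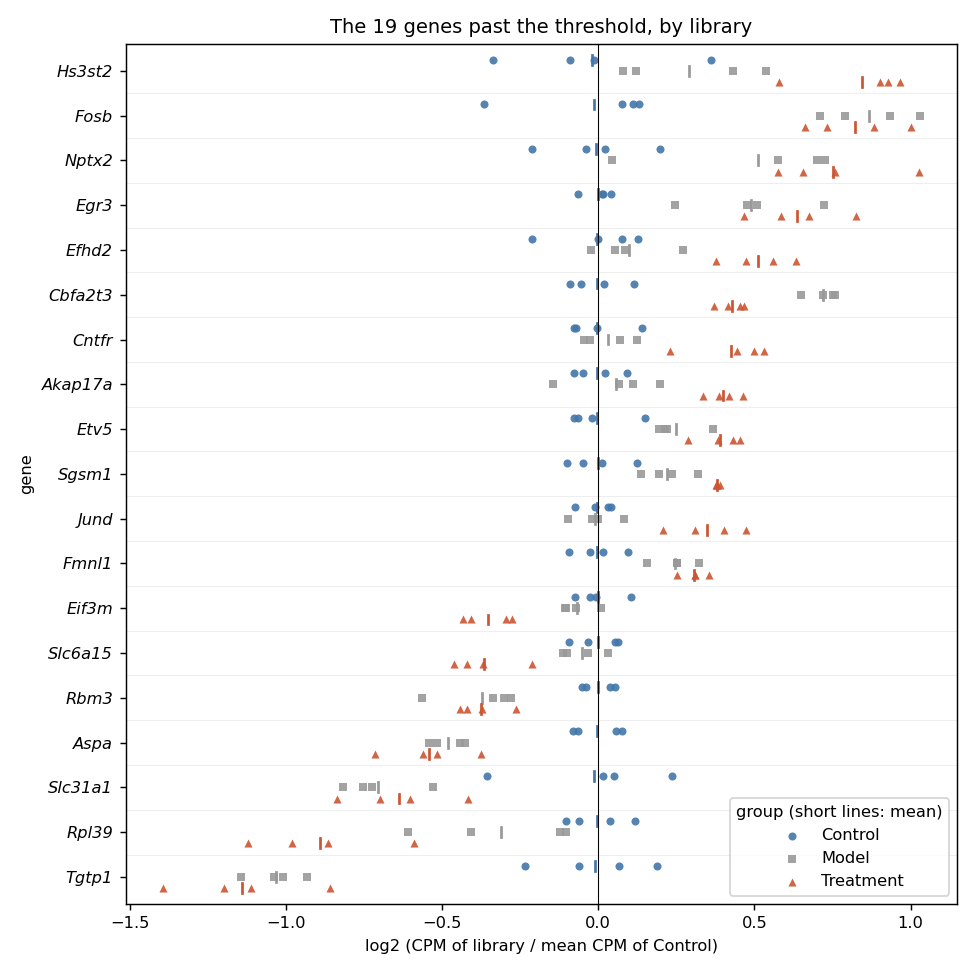
Expression of the 19 genes that passed in each library, as log2 of its CPM over the mean CPM of Control (points: libraries, short lines: group means, n = 4 per group). The Treatment points lie wholly to the right of the Control points for 12 genes and wholly to the left for 7, while the Model points lie near Control for some genes (Jund, Cntfr) and near Treatment for others (Fosb, Aspa).

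Promoter sequence is shown for 3 of the genes that rose, which held a binding site of Egr proteins or a cAMP response element just before the start of transcription. It is also shown for Hspa5, the main ER chaperone, described further below. Each line gives the 110 bases that end just before the start, read 5′ to 3′ on the strand of the gene, from RefSeq on build GRCm38.p6, and capitals mark the element. For Fosb (chr7:19310046-19310155, minus strand) and Cbfa2t3 (chr8:122678176-122678285, minus strand) it is the GC-rich binding site of Egr proteins, GCGGGGGCG. For Hs3st2 (chr7:121392186-121392295, plus strand) it is the cAMP response element (CRE), TGACGTCA. For Hspa5 (chr2:34771980-34772089, plus strand) it is the ER stress response element (ERSE), whose ends are fixed and whose middle 9 bases are free.
Fosb: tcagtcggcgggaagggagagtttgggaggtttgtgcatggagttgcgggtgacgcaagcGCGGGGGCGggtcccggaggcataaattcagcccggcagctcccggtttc
Cbfa2t3: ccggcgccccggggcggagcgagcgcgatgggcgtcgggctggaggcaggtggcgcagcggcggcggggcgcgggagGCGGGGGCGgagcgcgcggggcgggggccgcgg
Hs3st2: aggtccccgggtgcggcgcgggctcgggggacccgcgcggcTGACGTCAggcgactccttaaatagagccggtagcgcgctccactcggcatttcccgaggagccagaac
Hspa5: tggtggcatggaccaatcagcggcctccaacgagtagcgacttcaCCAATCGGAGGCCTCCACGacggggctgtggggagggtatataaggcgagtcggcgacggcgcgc

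Both strands of the 250 bases before each start were searched for these and for the AP-1 site (TGANTCA), the second form of the Egr site (GCGTGGGCG), the CArG box and the heat shock element. Windows were found for 9 of the 12 genes that rose and 5 of the 7 that fell. The Egr site was present in 2 of the 9 (22.2%) and in 2.93% of all 27025 genes with a window. Some genes had several windows, among them Cntfr with 6. Counted by window, the site was in 2 of 17 (11.8%) and in 2.57% of all windows. The CRE was present in 1 of the 9, Hs3st2, and in 1.77% of all genes. Beyond these, Sgsm1 held an AP-1 site (7.82% of all genes) and Aspa, among the genes that fell, a CArG box (1.62%). The Egr site is rich in G and C, as are many promoters, and a match of letters shows no binding.

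Of the immediate early genes that rose, Egr3, an activity-induced zinc finger transcription factor, had the smallest p. Its level was 88.0, 94.6, 92.9 and 92.8 CPM in Control replicates 1 to 4 and 163, 138, 127 and 147 CPM in Treatment replicates 1 to 4. Control was tight and all Treatment libraries lay well above it, with replicate 1 highest. The log2 fold change was 0.64 ± 0.09 (95% interval 0.45 to 0.84, adjusted p = 0.0168). Model lay between the groups at 130 ± 17.8 CPM (SD, n = 4), 0.50 above Control (adjusted p = 0.0212) and 0.15 below Treatment in log2 units (adjusted p = 0.405).

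Fosb encodes a partner in the AP-1 transcription factor, with a truncated stable form that builds up under repeated stimulation. It was measured at 4.18, 5.90, 5.82 and 5.68 CPM in Control and at 9.95, 10.8, 8.53 and 8.96 CPM in Treatment, in replicate order. Control replicate 1 was the lowest, and the groups were apart without it too. The log2 fold change was 0.82 ± 0.13 (95% interval 0.55 to 1.09, adjusted p = 0.0272). Model, at 9.86 ± 0.974 CPM, was 0.87 above Control (adjusted p = 0.0111), and Treatment minus Model was -0.04 (adjusted p = 0.903).

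Nptx2, a secreted neuronal pentraxin that gathers AMPA receptors at synapses, stood at 21.8, 16.4, 19.3 and 18.5 CPM in Control and at 38.7, 32.1, 29.9 and 28.3 CPM in Treatment. The lowest Treatment library was still above the highest Control library. Its log2 fold change was 0.77 ± 0.14 (95% interval 0.47 to 1.06, adjusted p = 0.0499), with Model at 27.6 ± 5.47 CPM. Jund, the Jun family member with a high steady level, had 141, 140, 130 and 136 CPM in Control and 158, 170, 190 and 181 CPM in Treatment. It rose by 0.35 ± 0.06 (adjusted p = 0.0499). Here Model matched Control at 136 ± 7.02 CPM (-0.01, adjusted p = 0.976), and Treatment exceeded Model by 0.36 (adjusted p = 0.0179). Per length, in the deposited FPKM, Jund was the most abundant of the 12 genes that rose (mean 126 in Treatment) and Fosb the least (mean 3.37).

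The list of immediate early genes had 27 members, all measured: 4 rose, 0 fell and 23 did not pass. Like the other lists, it was drawn up with earlier results of these data known. The fold change was positive in 21 and negative in 6, with a median of 0.21, against a median of -0.00759 over all genes tested and positive values in 47.9% of them. Over the settings tried the list median ran from 0.12 to 0.23. It was 0.14 with the trends on GC content and transcript length removed (described below). In 8 members the Treatment libraries lay wholly above Control, against 3.99% of all genes. Fos and Arc, the most used activity markers, did not pass: Fos differed by 0.14 ± 0.28 (95% interval -0.46 to 0.73, adjusted p = 0.886) and Arc by 0.03 ± 0.11 (95% interval -0.21 to 0.27, adjusted p = 0.95). Homer1, a postsynaptic scaffold (0.55 ± 0.14, adjusted p = 0.109), and Inhba, an activin subunit (0.65 ± 0.17, adjusted p = 0.125), also missed the threshold. The score of a list is the mean log2 CPM of its members around the mean of all 12 libraries. For immediate early genes it was close to constant in Treatment, 0.112 to 0.128, and between -0.179 and -0.0626 in Control.

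**Figure D2:**
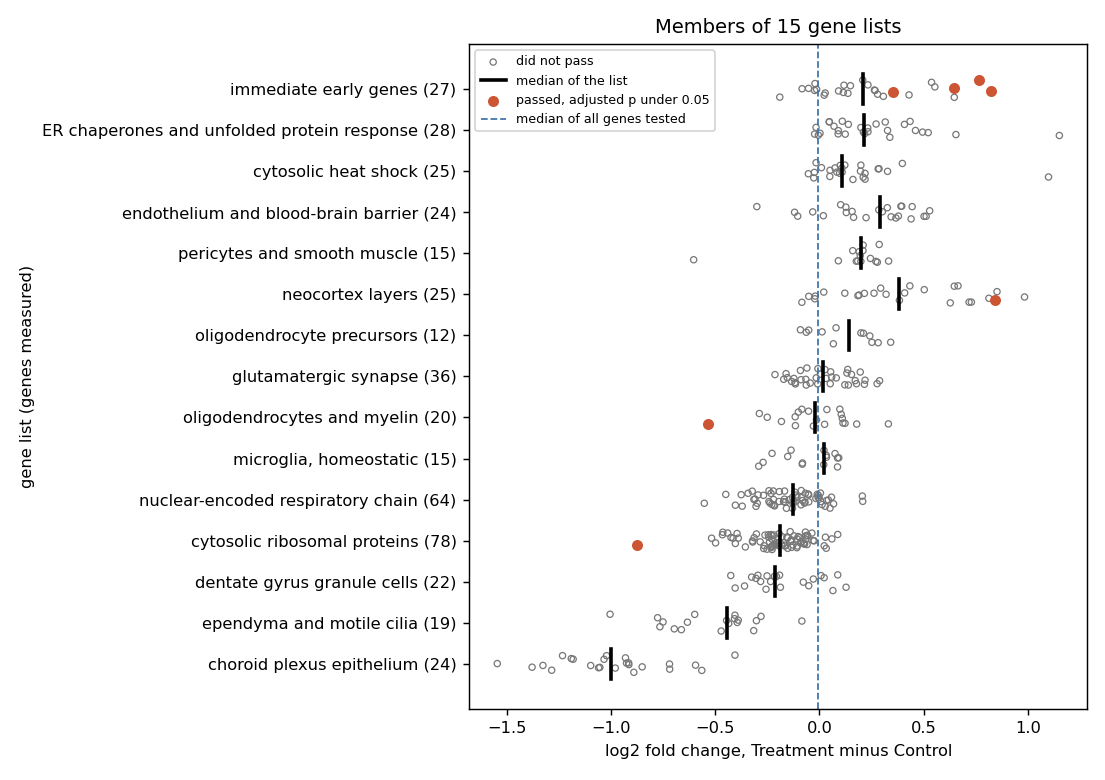
Log2 fold changes of Treatment minus Control for the measured members of 15 gene lists (circles: genes, filled where they passed at adjusted p under 0.05, black lines: list medians, dashed line: median of all genes tested). The medians run from -1.0 for choroid plexus epithelium to 0.38 for neocortex layers, and immediate early genes hold 4 of the filled circles.

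Hs3st2 had the highest fold change of the genes that rose. It encodes a brain-enriched sulfotransferase of heparan sulfate chains. Its level was 9.47, 12.3, 7.57 and 8.99 CPM in Control and 18.2, 14.3, 17.9 and 18.7 CPM in Treatment. Treatment replicate 2 was the lowest of its group and Control replicate 2 the highest, with a gap between them. The log2 fold change was 0.84 ± 0.14 (95% interval 0.54 to 1.14, adjusted p = 0.0416), Model lay at 11.8 ± 1.88 CPM, and Treatment minus Model was 0.54 (adjusted p = 0.0588). Hs3st2 is also one of the neocortex markers described further below.

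Efhd2, a calcium-binding EF-hand protein of the cytoskeleton, had 138, 143, 113 and 131 CPM in Control and 203, 170, 182 and 193 CPM in Treatment. All Treatment libraries were above every Control and every Model library. The rise was 0.51 ± 0.08 over Control (adjusted p = 0.0303) and 0.41 over Model (adjusted p = 0.0246). Cntfr, the ligand-binding receptor subunit for ciliary neurotrophic factor, had 55.3, 61.1, 52.5 and 52.7 CPM in Control and 64.9, 75.4, 80.1 and 78.2 CPM in Treatment. Treatment replicate 1 was the one nearest to Control. The rise was 0.43 ± 0.07 over Control (adjusted p = 0.0452) and 0.40 over Model (adjusted p = 0.0199). Cntfr was the 1 of 18 measured neurotrophin and receptor genes that passed. Bdnf, the best known neurotrophin, differed by -0.15 ± 0.12 (95% interval -0.41 to 0.10, adjusted p = 0.623).

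Cbfa2t3, a corepressor of transcription of the ETO family, had 27.5, 28.2, 31.7 and 29.7 CPM in Control, 40.1, 37.9, 39.1 and 40.5 CPM in Treatment, and 46.0, 49.3, 49.5 and 48.3 CPM in Model. No libraries of different groups overlapped: Control was lowest, Treatment in the middle and Model highest. Treatment was 0.43 ± 0.06 above Control (adjusted p = 0.0168) and Treatment minus Model was -0.29 (adjusted p = 0.0259), while Model was 0.72 above Control (adjusted p = 4e-05). The remaining genes that rose changed by 0.31 to 0.40. Etv5, an ETS transcription factor that acts in ERK signalling, went from 67.4 ± 5 to 88.4 ± 4.46 CPM (SD, n = 4; 0.39 ± 0.07, adjusted p = 0.0394). Sgsm1, a regulator of Rab GTPases, went from 74.1 ± 5.01 to 96.5 ± 0.335 CPM (0.38 ± 0.06, adjusted p = 0.0272). Its 4 Treatment libraries lay within 96.2 and 97.0 CPM. Akap17a, an anchoring protein for protein kinase A in splicing speckles, went from 27.1 ± 1.43 to 35.8 ± 1.35 CPM (0.40 ± 0.07, adjusted p = 0.0499). Fmnl1, a formin that builds actin filaments, went from 104 ± 5.57 to 129 ± 3.71 CPM (0.31 ± 0.06, adjusted p = 0.0499). Against Model, of these 4 Akap17a differed by 0.34 (adjusted p = 0.0326), whereas Etv5, Sgsm1 and Fmnl1 had adjusted p of 0.26, 0.156 and 0.624.

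Of the genes that fell, 2 belong to translation. Rpl39, a small protein at the exit of the large ribosomal subunit, had 25.5, 21.9, 24.1 and 22.5 CPM in Control and 11.9, 10.8, 12.9 and 15.6 CPM in Treatment. Every Treatment library was below every Control library, and Model reached from 15.4 to 21.9 CPM. The log2 fold change was -0.87 ± 0.12 (95% interval -1.13 to -0.61, adjusted p = 0.0168), and against Model it was -0.58 (adjusted p = 0.0317). Rpl39 has processed copies elsewhere in the genome, so the split of its reads by the authors' counting is uncertain. Eif3m, a subunit of translation initiation factor 3, had 58.0, 57.3, 62.7 and 55.4 CPM in Control and 44.0, 43.2, 47.5 and 48.1 CPM in Treatment. It fell by 0.35 ± 0.06 (adjusted p = 0.0416), and Treatment minus Model was -0.28 (adjusted p = 0.0297). Eif3e of the same factor, at 77.8 ± 4.01 CPM in Control and 61.8 ± 5.13 CPM in Treatment, missed the threshold against Control (-0.33 ± 0.07, adjusted p = 0.0665).

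Of 78 cytosolic ribosomal protein genes, all measured, Rpl39 was the 1 that fell, 0 rose and 77 did not pass. The fold change was negative in 73, with a median of -0.19, and in 13 the Treatment libraries lay wholly below Control, against 3.24% of all genes. The score split the Treatment libraries: it was -0.26 and -0.23 in replicates 1 and 2 but 0.01 and 0.08 in replicates 3 and 4, with Control between 0.059 and 0.178. The 64 measured nuclear-encoded subunits of the respiratory chain, which makes most of a neuron's ATP, showed the same split without any gene passing (53 negative, median -0.13). Their score was -0.26 and -0.23 in Treatment replicates 1 and 2 and 0.05 and 0.10 in replicates 3 and 4. With Treatment replicates 1 and 2 both left out, 616 genes passed, 275 higher and 341 lower. The median of the ribosomal protein genes was then -0.05 and that of the respiratory chain genes -0.01 (-0.08 without replicate 1 or without replicate 2 alone), and Rpl39 was called (-0.72, adjusted p = 0.0237).

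Aspa, which cleaves N-acetylaspartate in oligodendrocytes, had 23.2, 21.1, 23.5 and 21.3 CPM in Control and 17.2, 15.6, 15.1 and 13.6 CPM in Treatment. The groups were well apart. It fell by 0.53 ± 0.08 (95% interval -0.70 to -0.37, adjusted p = 0.024), and Model, at 16.0 ± 0.621 CPM, was as low as Treatment. Aspa was the 1 of 20 oligodendrocyte and myelin genes that passed, 9 of them had a positive and 11 a negative fold change, and the median was -0.02. Mobp and Mog, structural genes of myelin, differed by -0.12 ± 0.07 (adjusted p = 0.517) and -0.18 ± 0.09 (adjusted p = 0.411).

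Rbm3, an RNA-binding protein induced by cold, had 90.9, 84.5, 85.2 and 89.9 CPM in Control and 67.7, 64.5, 65.4 and 73.0 CPM in Treatment, a fall by 0.37 ± 0.07 (adjusted p = 0.0499). Model was at the level of Treatment, 67.9 ± 5.91 CPM. Its relative Cirbp, which did not pass, differed by -0.23 ± 0.08 (adjusted p = 0.211), and Rbm3 was the 1 of 40 splicing regulators and RNA-binding proteins that passed. Slc31a1, the copper importer of the plasma membrane, had 41.2, 40.2, 46.9 and 31.1 CPM in Control and 24.5, 29.8, 26.2 and 22.3 CPM in Treatment. Control replicate 4 came close to the highest Treatment library. It fell by 0.63 ± 0.11 (adjusted p = 0.0499), and Model was at 24.5 ± 2.21 CPM (Model minus Control -0.70, adjusted p = 0.0155). Control replicate 4 is also the Control library with the fewest choroid plexus transcripts, and the fold change was -0.30 with the choroid plexus score and -0.35 with the neocortex score as a covariate (described below). Slc6a15, a neuronal transporter of neutral amino acids, had 63.2, 60.5, 67.1 and 67.5 CPM in Control and 48.3, 46.9, 50.0 and 55.8 CPM in Treatment. It fell by 0.36 ± 0.07 (adjusted p = 0.0499), and Model, at 62.3 ± 2.89 CPM, was near Control (Treatment minus Model -0.31, adjusted p = 0.0301).

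Tgtp1, an interferon-inducible GTPase of innate defence, had the largest fall but the lowest level. It had 3.35, 3.08, 2.50 and 2.82 CPM in Control and 1.28, 1.62, 1.36 and 1.12 CPM in Treatment. The log2 fold change was -1.13 ± 0.19 (95% interval -1.52 to -0.73, adjusted p = 0.0394), with Model at 1.44 ± 0.0839 CPM. The near-identical neighbour Tgtp2 makes its counts uncertain. Tgtp1 is not a member of the list of interferon-stimulated genes. Of the 32 measured members of that list 0 passed in either direction, with a median of 0.11.

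**Figure D3:**
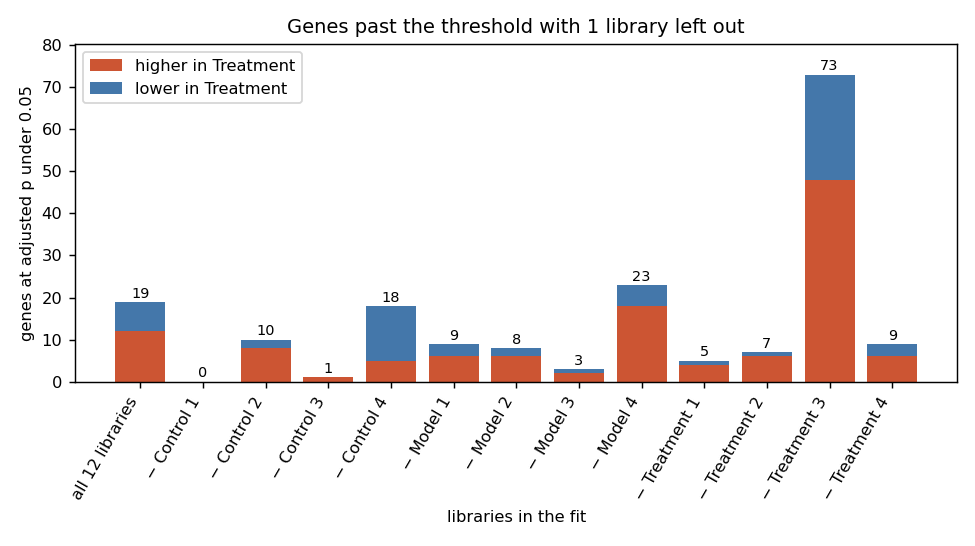
Number of genes that passed with all 12 libraries and with 1 library left out of the fit, split by direction (y axis: genes at adjusted p under 0.05, x axis: library left out). The count fell from 19 to 0 without Control replicate 1 and to 1 without Control replicate 3, and reached 73 without Treatment replicate 3.

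Which genes passed depended on single libraries. Without Control replicate 1 the count was 0 (2113 genes at an unadjusted p under 0.05), and without Control replicate 3 it was 1, Cbfa2t3. It was 3 without Model replicate 3, 5 without Treatment replicate 1, 7 without Treatment replicate 2, 9 without Treatment replicate 4, 8 to 10 without Model replicate 1 or 2 or Control replicate 2, and 73 without Treatment replicate 3. Over the 12 fits that left out 1 library the call held in 11 for Cbfa2t3, 10 for Egr3, 9 for Rpl39, 7 for Fosb and Aspa, and in 2 to 6 for the others. No fold change of the 19 genes turned sign in any of the 30 other settings tried. These genes were picked by p and their groups did not overlap. A turned sign was thus hardly possible with libraries left out.

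ER chaperones fold secreted and membrane proteins, and the unfolded protein response adjusts their supply. None of the 28 genes of this list passed, 25 were positive (14 at an unadjusted p under 0.05, as were 13.9% of all genes in either direction), the median was 0.21, and in 10 the Treatment libraries lay wholly above Control (3.99% of all genes). Hspa5, the main Hsp70 of the ER, was measured at 189, 193, 211 and 174 CPM in Control and at 275, 243, 345 and 218 CPM in Treatment. Treatment replicate 4 was just above the highest Control library and replicate 3 far above it. The difference was 0.50 ± 0.15 (95% interval 0.18 to 0.81, adjusted p = 0.153), and Model was at 335 ± 79.8 CPM. Among other members were Calr, a calcium-binding lectin chaperone, at 0.32 ± 0.08 (adjusted p = 0.125) and Xbp1, a transcription factor of the unfolded protein response, at 0.41 ± 0.11 (adjusted p = 0.13). The score was between -0.234 and -0.195 in Control, and in Treatment it was near 0 in replicates 1, 2 and 4 and 0.198 in replicate 3. The ERSE printed above for Hspa5 was found in 10 of the 24 genes of this list with a promoter window (41.7%), against 0.13% of all genes. The list was drawn up from genes of this response, so that share describes the list. It bears no information on Treatment against Control. Of 25 cytosolic heat shock genes 21 were positive (median 0.11) and 0 passed. Hspb1, a small heat shock protein, had 4.08, 3.22, 2.68 and 2.74 CPM in Control and 5.64, 7.25, 8.74 and 5.69 CPM in Treatment (1.1 ± 0.21, adjusted p = 0.054).

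Markers of cells and tissues other than hippocampal neurons also differed in level between the libraries. In bulk tissue, fewer cells of a type and less RNA per cell cannot be told apart. All 24 choroid plexus epithelium genes were negative (median log2 fold change -1.0), but 0 passed. An unadjusted p under 0.05 was found in 23 of them, and in 13.9% of all genes in either direction. Their CPM added up to 3360, 4030, 4380 and 1500 in Control and to 1110, 2690, 1970 and 1050 in Treatment, and no marker was at 0 in any of these libraries. Control replicate 4 lay among the Treatment libraries. The median log2 fold change of these choroid plexus epithelium genes was -1.15 for Model minus Control and 0.16 for Treatment minus Model. Ttr, the transthyretin that this epithelium secretes, had 1510, 1850, 2020 and 600 CPM in Control and 386, 1250, 977 and 418 CPM in Treatment (-0.98 ± 0.36, adjusted p = 0.238). The 19 measured genes of ependyma and motile cilia, which line the same ventricle, were all negative (median -0.45), and 0 passed. In a fit with the score of the choroid plexus genes as covariate 0 genes passed (1595 at an unadjusted p under 0.05). The log2 fold changes were then 0.88 for Fosb, 0.57 for Egr3, -0.97 for Rpl39 and -0.50 for Aspa, and that of Slc31a1 went from -0.63 to -0.30. The choroid plexus score ran from -0.267 to 1.15 in Control and from -0.826 to 0.448 in Treatment. Score and group could thus be separated only in part, and a lost call or smaller fold change decides little about a gene. The part of these markers in the results was not tested beyond this fit.

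Neocortex layer markers went the other way. Of 25 measured, 21 were positive (median 0.38), and 1, Hs3st2, passed. An unadjusted p under 0.05 was found in 17 of the 25, and in 13.9% of all genes in either direction. Their CPM added up to between 1080 and 1230 in Control and between 1280 and 1600 in Treatment, without overlap and with no marker at 0. Tbr1, a transcription factor of deep cortical layers, differed by 0.63 ± 0.12 (adjusted p = 0.0584). Of the 22 dentate gyrus granule cell genes 17 were negative and 5 positive (median -0.21), 0 passed, and their CPM added up to between 1850 and 2070 in Control and between 1630 and 1900 in Treatment. With the neocortex score as a covariate 0 genes passed (1409 at an unadjusted p under 0.05). The score itself lay between -0.36 and 0.0027 in Control and between 0.087 and 0.448 in Treatment, without overlap. Score and group can therefore hardly be separated in this fit, and a lost call or smaller fold change decides nothing about a gene. The log2 fold change of Hs3st2, itself a member of the score, was then 0.50. It was 0.33 for Efhd2 and -0.35 for Slc31a1, both over 1.5 times smaller than before, and 0.56 for Egr3, 0.81 for Fosb and 0.87 for Nptx2. The part of the neocortex markers in these rises was not tested.

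**Figure D4:**
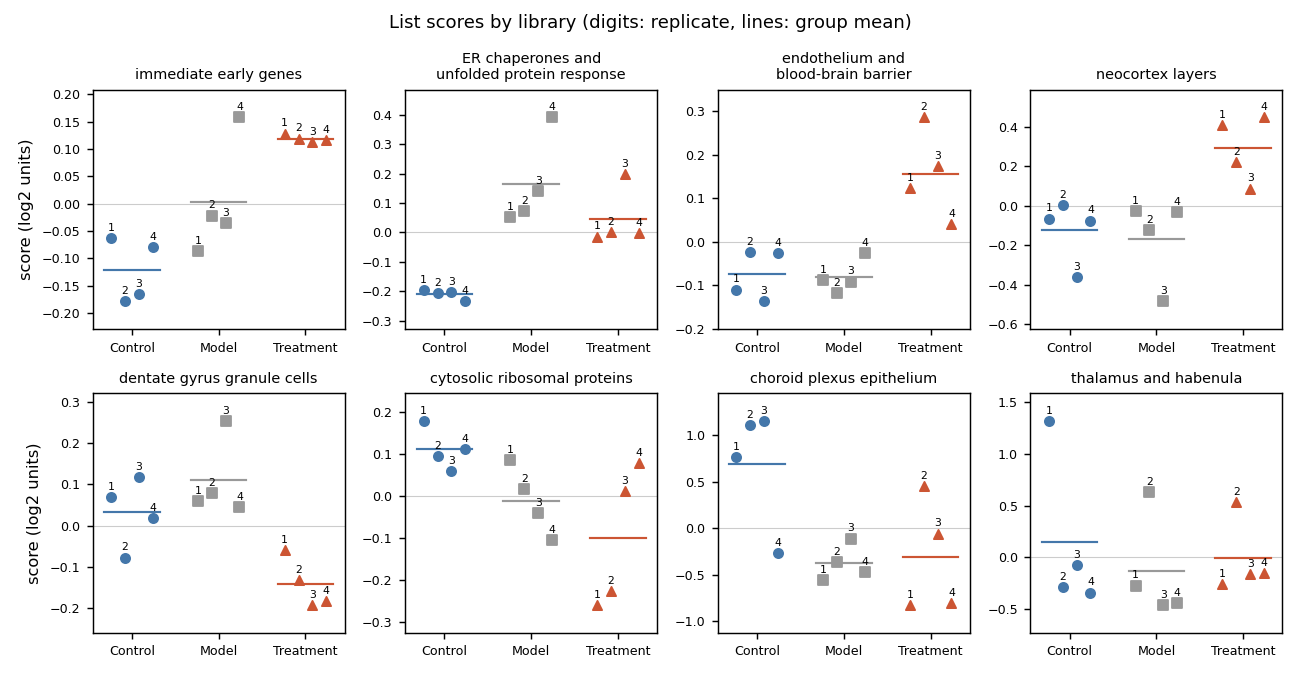
Scores of 8 gene lists in each library (mean log2 CPM of the members around the mean of all 12 libraries, digits: replicate, lines: group means). Treatment lies wholly above Control for immediate early genes, ER chaperones, endothelium and neocortex layers, splits into replicates 1 and 2 against 3 and 4 for ribosomal proteins, and overlaps Control for choroid plexus, dentate gyrus and thalamus genes.

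Endothelium forms the blood-brain barrier. Of 24 endothelium and blood-brain barrier genes 20 were positive, with a median of 0.29, and 0 passed. Of these 20, 11 had an unadjusted p under 0.05 (13.9% of all genes in either direction), and 7 lay wholly above Control (3.99% of all genes). Ly6c1, a surface protein of brain capillaries, had 16.7, 19.1, 16.8 and 19.9 CPM in Control and 26.4, 26.1, 30.2 and 21.2 CPM in Treatment (0.51 ± 0.10, adjusted p = 0.0665). Pecam1, a junction protein of endothelium, differed by 0.53 ± 0.11 (adjusted p = 0.081). Of 15 pericyte and smooth muscle genes 14 were positive (median 0.20) and 0 passed. Their summed CPM ran from 225 to 244 in Control and from 256 to 290 in Treatment. Their score overlapped, with -0.147 to 0.118 in Control and 0.00696 to 0.254 in Treatment. The medians were 0.05 for 16 astrocyte genes, 0.02 for 15 homeostatic microglia genes, 0.14 for 12 oligodendrocyte precursor genes (5 at an unadjusted p under 0.05) and -0.26 for 8 red blood cell genes (all negative, 4 at an unadjusted p under 0.05), with 0 past the threshold in each. Of 17 thalamus and habenula genes 14 were negative, but this rested on Control replicate 1, whose score was 1.32 against -0.345 to -0.0768 in the others.

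Genes of stress and depression research that were fixed as a set mostly showed small differences, and none of the 20 that could be tested passed in edgeR (7 at an unadjusted p under 0.05, against 13.9% of all genes). Nr3c1, the glucocorticoid receptor, differed by 0.08 ± 0.07 (95% interval -0.07 to 0.24, adjusted p = 0.66), and its target Fkbp5 by -0.11 ± 0.08 (95% interval -0.29 to 0.07, adjusted p = 0.616). Nr3c2, the mineralocorticoid receptor, differed by -0.23 ± 0.09 (adjusted p = 0.271). Htr1a, the serotonin 1A receptor, had 29.9, 30.1, 33.1 and 33.8 CPM in Control and 35.0, 35.4, 38.3 and 35.1 CPM in Treatment (0.18 ± 0.06, adjusted p = 0.222). Crh, corticotropin-releasing hormone, was low in all libraries, at 0.408 to 1.68 CPM in Control and 1.82 to 3.13 CPM in Treatment (1.12 ± 0.38, adjusted p = 0.205). The inflammasome sensor Nlrp3, the antioxidant regulator Nfe2l2, the AMPK subunit Prkaa1 and the mitochondrial deacetylase Sirt3 had adjusted p of 0.933, 0.704, 0.639 and 0.73. Tnf and Il1b had too few counts to be tested.

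Base composition differed between the 2 sets of genes that passed. The longest transcript had a median GC content of 56.9% in the 11 rising genes with a value and of 42.3% in the 7 falling genes, against 49.4% over all genes. The ranges of the 2 sets, 51.3% to 67.1% and 38.5% to 48.7%, did not overlap. Over 10 bins of equal size by GC content, the median log2 fold change of all genes went from -0.04 in the lowest bin to 0.10 in the highest. The difference between those bins was 0.15, 0.26 and 0.16 in Treatment replicates 2, 3 and 4 and -0.09 in Treatment replicate 1, and between -0.10 and 0.07 in Control. After each library's trend on GC content and transcript length was removed, 19 genes passed, 14 higher and 5 lower, and 10 were shared with the first set. Fosb (0.75, adjusted p = 0.0465), Egr3 (0.62, adjusted p = 0.0371), Aspa (-0.50, adjusted p = 0.00787) and Rpl39 (-0.70, adjusted p = 0.00787) were among them. Jund (0.21, adjusted p = 0.083), Hs3st2 (0.76, adjusted p = 0.0546) and Nptx2 (0.68, adjusted p = 0.0892) were not. Cbfa2t3 (0.39, adjusted p = 0.0594) and Efhd2 (0.45, adjusted p = 0.0594) also missed the threshold, as did Fmnl1, Slc31a1, Slc6a15 and Eif3m. The cause of the trend was not tested.

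**Figure D5:**
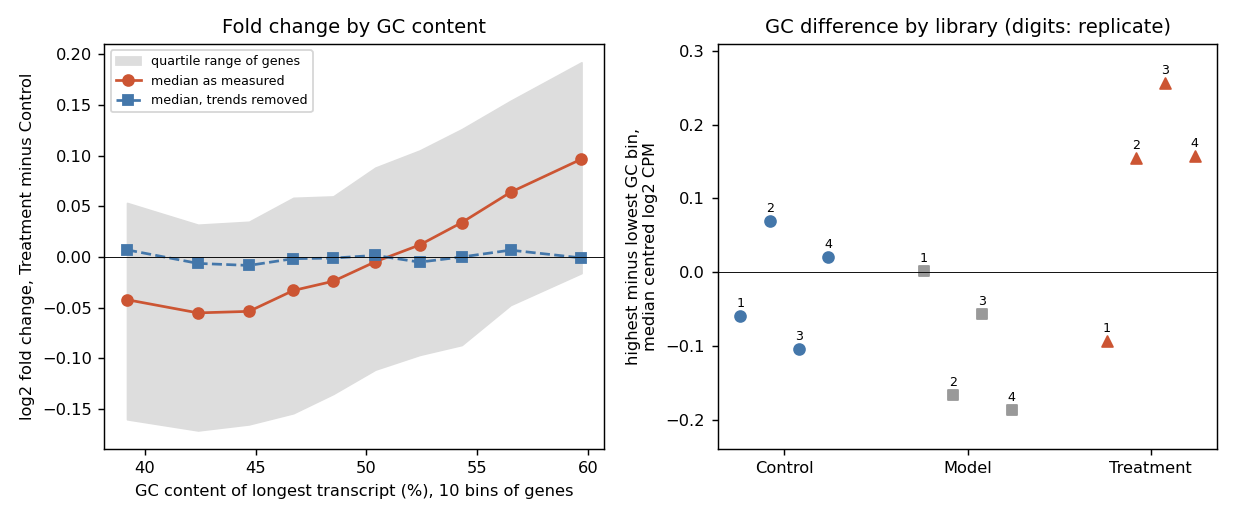
Left: median log2 fold change of Treatment minus Control in 10 bins of genes by GC content (grey: quartile range), as measured and after the trends were removed; right: difference in median centred log2 CPM between the highest and the lowest bin in each library. The measured median goes from -0.04 to 0.10, and Treatment replicates 2, 3 and 4 lie above all other libraries while Treatment replicate 1 does not.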

How the data were processed

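Poly(A) RNA-seq of 12 hippocampus libraries was used. STAR 2.7.10a, Salmon 1.10.1, Trim Galore 0.6.7, cutadapt 3.4 and build GRCm39 were used, per the submitters' processing notes; roles and annotation release are not given in the sources used here. The authors deposited an estimated count per gene (28.8% of nonzero values not whole within 1e-06), not scaled, and FPKM, scaled by length and library.

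Counts were rounded and fitted in edgeR 4.0.16 (R 4.3.3) with TMM scaling and filterByExpr, in 1 quasi-likelihood model of all 12 libraries with a mean per group. Genes that passed were named (up to 12 per direction by fold change, at least 1 CPM, no overlap of the groups), with the 10 of smallest p per direction, the leading members of 49 lists, and a fixed set of 22. Clone names were skipped, and 2 genes that the rule selects are not reported here. Members and lists were chosen with earlier results of these data known. Scores are from log2 CPM (prior count 2). Transcript GC content and length are those of each gene's longest GENCODE vM21 transcript (GRCm38), matched by gene identifier for 17359 of 18600 genes. Alternatives used DESeq2 1.42.0, limma 3.58.1, other filters, covariates and left-out libraries. On simulated counts the procedure called 53.7%, 76.1% and 93.9% of genes changed by 0.4, 0.8 and 1.5 log2 units, with 11 false calls among 18123 unchanged genes. These counts were drawn independently per gene, without the GC trend or the shared tissue differences between libraries. The rates may therefore not hold for the measured data. No 2 of the 12 sequenced libraries agreed within sampling noise.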

Additional observations from a re-analysis of the deposited data

Results flagged for a closer look

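In 15 of 262 groups of 4 libraries 1 library lay far from the other 3, where chance flags about 1 in 20. Among gene levels in Control, replicate 1 was low in Fosb at 4.18 CPM (others 5.68 to 5.90), replicate 4 high in Dnajb11, an ER chaperone, at 41.9 CPM (others 38.7 to 39.1), and replicate 3 low in the mitochondrial mt-Co2 at 2040 CPM (others 2310 to 2360) and high in the microglial Siglech at 16.1 CPM (others 13.7 to 13.9). Treatment replicate 4 was low in Maml2, a Notch coactivator, at 22.2 CPM (others 27.1 to 27.4) and in Arc at 54.3 CPM (others 69.2 to 71.6). Treatment replicate 3 was high in the astrocyte filament Gfap at 409 CPM (others 315 to 326), Sirt3 at 45.5 CPM (others 38.7 to 39.8) and Htr1a at 38.3 CPM (others 35.0 to 35.4).

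Among list scores, Treatment replicate 3 was high for ER chaperones at 0.198 (others -0.0144 to -8.48e-05), and Treatment replicate 4 low for corticosteroid receptors and targets at -0.0543 (others 0.0665 to 0.0744). Control replicate 3 was low for presynaptic release at -0.149 (others -0.0319 to -0.0154) and for inflammatory signalling at -0.0718 (others 0.00535 to 0.0193). For thalamus and habenula genes Control replicate 1 was high at 1.32 (others -0.345 to -0.0768) and Treatment replicate 2 at 0.53 (others -0.262 to -0.152).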

How the results depend on the processing

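The 19 genes of Treatment against Control became 12 with RLE size factors, 9 with limma-voom, 439 with DESeq2 (331 higher, 108 lower), 748 without a count filter (424 higher, 324 lower, 41961 genes tested) and 2, Egr3 and Rpl39, with only the 8 libraries compared. FPKM values with limma gave 14 genes with a pseudocount of 0.1, 9 with a pseudocount of 1 and 12 without a filter. A fold threshold of 0.2, the choroid plexus score and the neocortex score each gave 0 (897, 1595 and 1409 at an unadjusted p under 0.05). Leaving out 1 library gave 0 to 73 genes, and 18 without Control replicate 4 (5 higher, 13 lower). Treatment replicates 2 and 3 left out gave 130, with the Model libraries also left out 69, and Treatment replicates 1 and 2 left out 616 (275 higher, 341 lower); the last 2, like the removal of GC and length trends, were chosen after seeing the data. Of the 49 lists, 6 held a gene that passed. This count was 33 with DESeq2, 3 with limma-voom, 39 without a count filter, 2 with only the 8 libraries, 3 with each of the FPKM settings, 0 with the fold threshold or either covariate, and 0 to 17 with 1 library left out. It was 18 without Treatment replicates 2 and 3, 14 without these and the Model libraries, and 29 without Treatment replicates 1 and 2. The causes were not tested.

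Little sign of a pairing by replicate number was seen, which does not exclude one. Same-numbered Control and Treatment libraries correlated by -0.0228, 0.0451, 0.0161 and 0.0364 in their deviations from the group means. Of the 4 Control libraries, 1 correlated best with its own number. With the replicate block 118 genes passed (85 higher, 33 lower) and 23 lists held one. With GC and length trends removed and the replicate block it was 206 genes and 32 lists. The share of higher calls was 63.2% in the fit reported, 75.4% with DESeq2 and 73.7% with GC and length trends removed. Falls outnumbered rises without Control replicate 4 (27.8% higher), without Treatment replicates 1 and 2 (44.6%) and with FPKM without a filter (41.7%). None of the 19 genes turned sign in any of the 30 settings, and each was called in 9 to 25 of them. As their groups did not overlap, a turned sign was hardly possible with libraries left out. Of the 65 other named genes 40 were called in at least 1 setting and 11 turned sign in at least 1.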

Other observations

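Some further genes stood near the threshold. Npas2, a partner of the circadian clock, had 26.8, 33.0, 22.0 and 30.3 CPM in Control and 40.0, 36.1, 37.8 and 43.0 CPM in Treatment (0.48 ± 0.10, adjusted p = 0.0865), and 19 of 23 clock genes were positive with a median of 0.10. Slc12a5, the neuronal chloride exporter, had 427, 467, 443 and 457 CPM in Control and 523, 539, 514 and 546 CPM in Treatment (0.24 ± 0.05, adjusted p = 0.0808). Tmsb4x, an actin-binding peptide, had 527, 473, 573 and 548 CPM in Control and 347, 335, 433 and 439 CPM in Treatment (-0.45 ± 0.09, adjusted p = 0.0681).

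Among 57 clustered protocadherins, adhesion genes that give neurons their identity, 37 were positive with a median of 0.06, and 0 passed. Transcripts of the alpha cluster share 3' exons, as do those of the gamma cluster, so the split of reads between members of each is uncertain. Pcdha5 differed by 0.54 ± 0.11 (adjusted p = 0.0738) and Pcdha12 by 0.51 ± 0.11 (adjusted p = 0.0841). H2-T23, a nonclassical class I molecule, had 4.13, 6.98, 5.71 and 5.31 CPM in Control and 10.2, 8.51, 8.94 and 8.36 CPM in Treatment (0.69 ± 0.15, adjusted p = 0.0841), while 0 of 23 antigen presentation genes passed. Lcn2, an acute-phase protein, was at 0.0971, 0.0362, 0 and 0.0409 CPM in Control and at 1.13, 0.862, 2.88 and 0.0431 CPM in Treatment, where replicate 4 lay among the Control libraries (adjusted p = 0.118).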
